A study of Mus musculus with 15 samples.

Results

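The claudins are a family of small membrane proteins of tight junctions, and 10 of their genes (Cldn1, Cldn2, Cldn3, Cldn4, Cldn7, Cldn8, Cldn12, Cldn15, Cldn18 and Cldn23) were followed across 5 mouse epithelia. The choice was a list of gene names, made with earlier results of these data known, and all 10 were found among the 50600 genes of the tables. The 5 groups were medullary thymic epithelial cells (mTEC), cortical thymic epithelial cells (cTEC) and epithelial cells of skin, lung and colon, with 3 RNA-seq libraries in each group. The donors were 8-week-old male C57BL/6J mice, whose primary epithelial cells were taken by fluorescence-activated sorting, and each library came from a pool of 5 mice, so n = 3 counts pools. The labels name no gene modification and no treatment in any group, and they do not say whether pools of different groups came from the same mice. Poly(A) RNA libraries were made with a KAPA RNA Stranded kit for mTEC, cTEC and skin and with a KAPA RNA HyperPrep kit for lung and colon, so that kit and tissue cannot be told apart between those sets. The study asked what sets the different level of MHC class I molecules on these epithelia. The claudins bear on another property of the same cells, their junctions.

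Each claudin crosses the membrane several times and binds claudins of the neighbouring cell, which closes the space between cells. Some members, such as Cldn1, Cldn3 and Cldn4, seal that space, whereas others, such as Cldn2 and Cldn15, form channels for small ions. The set of claudins that a cell makes is known to set how tight and how ion-selective an epithelium is, and in the thymus Cldn3 and Cldn4 are known as surface markers of medullary cells.

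The libraries held between 12946533 and 41978665 sense-strand gene reads, fewest in skin and most in lung. Of 19107 genes tested, all 10 claudins were included. The sorted cells carried the markers of their labels: the autoimmune regulator Aire averaged 481 CPM (gene reads scaled to a common library total) in mTEC and 44.3 CPM in cTEC, whereas the cortical proteasome subunit Psmb11 averaged 19.2 CPM in mTEC and 332 CPM in cTEC. The keratin Krt14 averaged 9165 CPM in skin, the alveolar type 1 gene Ager 14500.0 CPM in lung and the goblet cell mucin Muc2 7358 CPM in colon. Markers of other cell types also differed between libraries. The summed level of 6 endothelial markers was 243, 90.4 and 79.1 CPM in skin replicates 1 to 3, and that of 6 fibroblast markers was 2986, 876 and 5460.0 CPM there, against at most 842 CPM in any library of the other groups. The sum of 6 myeloid markers was 1763 to 3298 CPM in lung, against at most 191 CPM elsewhere, but it was carried by Lyz2 (1892 CPM on average), which alveolar type 2 cells also express, and Csf1r (539 CPM), whereas C1qa (0.206 CPM) and Itgam (0.118 CPM) had lower means in lung than in any other group. Skin replicate 1 stood apart in quality, with 8.43 sense reads for each gene read on the opposite strand, against 13.0 to 19.3 in the other libraries, and with 46.9% of reads not assigned to 1 gene on the sense strand (unmapped, multiply mapped, ambiguous or outside genes), against at most 36.1%. In bulk RNA, fewer cells of a type and less RNA per cell cannot be told apart.

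Levels of different claudins were compared in TPM, the estimate of transcript abundance that corrects for transcript length and adds up to the same total in every library. Cldn4 was the most abundant of the 10 claudins in 4 of the 5 epithelia, and Cldn18 in the lung. In mTEC, Cldn4 averaged 210 ± 76.5 TPM (SD, n = 3, as for all means here), which was 48.1% of the summed TPM of the 10 claudins. Cldn7 (79.4 TPM), Cldn1 (56.8 TPM) and Cldn3 (56.3 TPM) followed it and overlapped in their ranges. The cTEC make-up was led by the same 4 genes at lower levels, with Cldn4 at 85.4 ± 24.9 TPM (38.2%), Cldn1 at 47.1 TPM, Cldn7 at 37.1 TPM and Cldn3 at 30.0 TPM. In skin Cldn4 at 569 ± 42.4 TPM and Cldn1 at 188 ± 37.1 TPM together made up 97.2% of the sum. By the share of the first 2 claudins this was the narrowest make-up of the 5. The first claudin alone held less in skin (73.2%) than in lung (81.6%).

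In lung, Cldn18 averaged 2177 ± 147 TPM and held 81.6% of the sum, 10.7 times the level of Cldn7 (203 TPM), which was next. Levels of 10 TPM or more were reached by 5 claudins in mTEC, 5 in cTEC, 2 in skin, 6 in lung and 8 in colon. By share, the first 3 claudins made up 76.6% of the sum in cTEC, less than in any other group, and 86.2% in colon. The leading genes in colon were Cldn4 at 1023 ± 121 TPM (34.6%), Cldn7 at 938 ± 104 TPM (31.7%) and Cldn3 at 588 ± 71.2 TPM (19.9%). Cldn4 exceeded Cldn7 within each of the 3 colon libraries, although the ranges of the pair overlapped between libraries. The leading claudin of each epithelium was the highest of the 10 in all 3 libraries of its group.

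**Figure D1:**
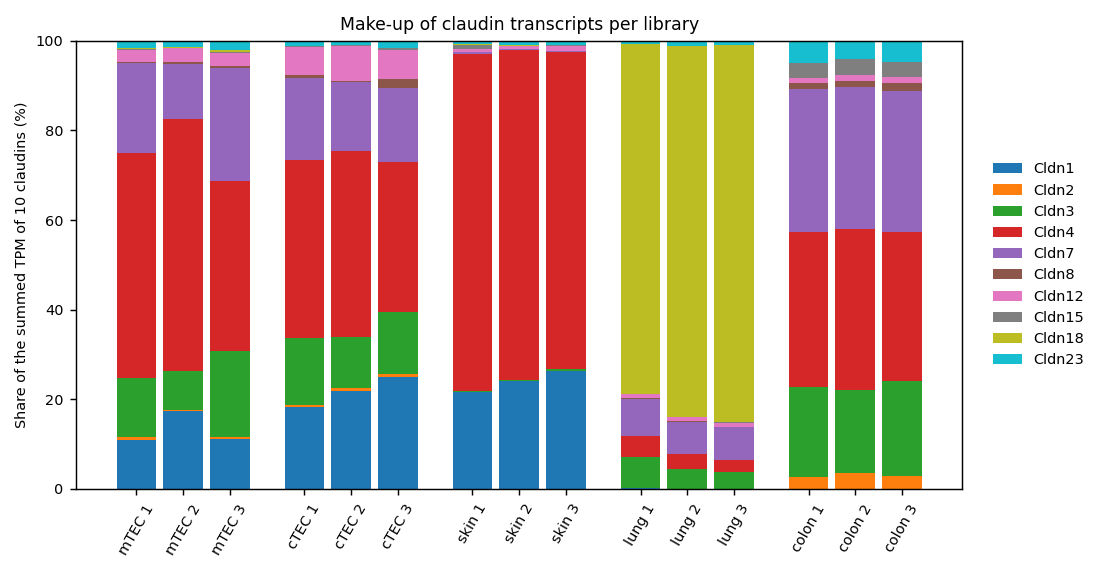
Share of each claudin in the summed TPM of the 10 claudins (percent, vertical axis) for each of the 15 libraries, grouped as mTEC, cTEC, skin, lung and colon. Cldn4 takes 33.2 to 75.2% of every library outside the lung, where Cldn18 takes 78.1 to 84.1%.

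The summed level of the 10 claudins was 427 ± 91.6 TPM in mTEC, 221 ± 49.7 TPM in cTEC, 780 ± 79.5 TPM in skin, 2668 ± 144 TPM in lung and 2958 ± 314 TPM in colon. Lung and colon therefore carried the higher sums, and these are also the groups made with the HyperPrep kit, whose part in the sums cannot be told apart from that of the tissue. No library of one kit fell within the range of sums of the other kit, from 178 to 850 TPM for mTEC, cTEC and skin and from 2547 to 3316 TPM for lung and colon. In lung, Cldn18 alone held 81.6% of the sum, so the height of the lung sum rests on that gene.

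**Figure D2:**
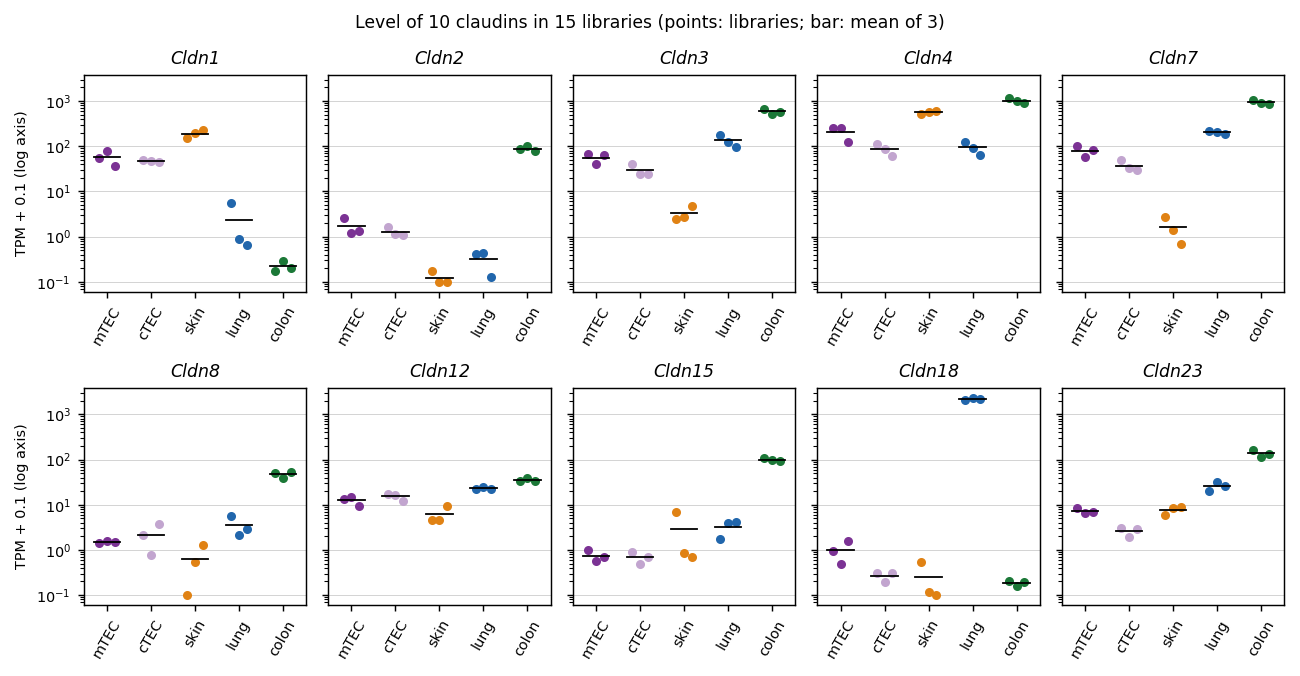
Level of each of the 10 claudins in TPM plus 0.1 on a log axis (vertical) in mTEC, cTEC, skin, lung and colon, with a point for each library and a bar at the mean of 3. Cldn18 stands above 2000 TPM in lung and below 2 TPM in every other library, and Cldn1 has its highest points in skin and its lowest in colon.

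Among the sealing claudins, Cldn4 lies on chromosome 5 of GRCm38 (chr5:134945119-134946934, minus strand) and next to it, 39.3 kb away on the other strand, lies Cldn3 (chr5:134986214-134987472). Both proteins are known as receptors of an enterotoxin of Clostridium perfringens. The 250 bases before the start of each gene are shown because the neighbouring genes had unlike patterns, first of all in skin. They come from RefSeq (GRCm38.p6, chr5:134946935-134947184 on the minus strand for Cldn4 and chr5:134985964-134986213 on the plus strand for Cldn3), read 5′ to 3′ with each match to a searched motif in capitals.
Cldn4: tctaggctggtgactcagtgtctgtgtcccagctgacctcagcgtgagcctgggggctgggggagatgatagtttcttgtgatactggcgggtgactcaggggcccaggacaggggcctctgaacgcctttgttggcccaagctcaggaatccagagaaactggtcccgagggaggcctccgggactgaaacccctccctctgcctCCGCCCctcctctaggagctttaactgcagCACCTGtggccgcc
Cldn3: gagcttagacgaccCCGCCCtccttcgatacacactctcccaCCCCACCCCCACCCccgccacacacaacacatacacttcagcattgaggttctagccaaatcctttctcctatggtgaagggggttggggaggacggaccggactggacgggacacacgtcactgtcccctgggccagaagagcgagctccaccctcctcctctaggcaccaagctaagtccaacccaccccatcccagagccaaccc
The search covered 11 motifs on both strands. The Cldn4 window held a GC box (GGGCGG, here as CCGCCC) 44 bases before the start and an E-box of the Snail and ZEB repressors (CAGGTG, here as CACCTG) 14 bases before it. The Cldn3 window held a GC box 236 bases before the start and a pair of overlapping KLF motifs (CCCCACCC) 208 and 202 bases before it. Of all 32851 promoter windows of that length, 32.7% held the GC box, 17.2% the E-box and 9.05% the KLF motif.

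Differences between groups were tested on read counts with edgeR, and levels between groups are given in CPM scaled by trimmed means (TMM). A gene is called where its Benjamini-Hochberg adjusted p over all 19107 genes was under 0.05. Cldn4 had 242, 283 and 125 CPM in mTEC replicates 1 to 3, against 113, 104 and 57.1 CPM in cTEC. It had 872, 950 and 736 CPM in skin, 168, 116 and 88.2 CPM in lung, and 1828, 1512 and 1443 CPM in colon. Colon was highest and skin next, each with ranges apart from all other groups, and lung overlapped both thymic groups. Skin was below colon by 0.90 ± 0.31 on the log2 scale (log2 fold change −0.90, SE 0.31, edgeR adjusted p = 0.023), but not when skin replicate 3 (adjusted p = 0.0542) or colon replicate 1 (0.0699) was dropped. The mTEC level exceeded the lung level with a log2 fold change of 0.80 ± 0.31 (SE, adjusted p = 0.0366), a call lost without mTEC replicate 1, mTEC replicate 2, lung replicate 2 or lung replicate 3 (adjusted p of 0.0904, 0.153, 0.101 and 0.156) and in a fit of those 2 groups alone (adjusted p = 0.0614). Between cTEC and lung the log2 fold change was −0.44 ± 0.31 (SE, adjusted p = 0.237).

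Cldn3 had 43.5, 29.6 and 43.1 CPM in mTEC, 28.7, 19.1 and 15.5 CPM in cTEC, and 2.54, 2.83 and 3.76 CPM in skin. In lung it had 164, 105 and 89.3 CPM, and in colon 709, 522 and 617 CPM. No 2 groups overlapped, in the order colon, lung, mTEC, cTEC and skin, and each step in that order was called, the smallest between mTEC and cTEC (log2 fold change 0.88 ± 0.26, SE, adjusted p = 0.0257). Skin therefore carried the lowest Cldn3 level and the second highest Cldn4 level of the 5 groups, with log2 fold changes of skin over colon of −7.64 ± 0.35 for Cldn3 and −0.90 for Cldn4 (SE, adjusted p = 4.49e-10 for Cldn3). Cldn3 overlaps the gene Wbscr25 on the opposite strand, and the reads were counted by strand.

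Cldn7, a claudin that also lies on the lateral membrane and binds the adhesion protein Epcam, is on chromosome 11 (chr11:69964779-69967885, plus strand). It had 55.1, 36.0 and 48.4 CPM in mTEC, 27.4, 20.7 and 16.1 CPM in cTEC, and 2.35, 1.41 and 0.243 CPM in skin. In lung it had 148, 136 and 133 CPM, and in colon 888, 711 and 755 CPM. This is the same order as for Cldn3, again with no overlap between any 2 groups. Over the 15 libraries, Cldn7 was the claudin with the pattern nearest to Cldn3 among all 45 pairs of the 10, with a root mean square difference of 0.98 in log2 CPM centred on each gene's mean. Skin was lower than colon by the widest step of the pattern, with a log2 fold change of −9.30 ± 0.49 (SE, adjusted p = 1.35e-09), on 45 reads over the 3 skin libraries.

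Cldn1, which is required for the water barrier of the epidermis in mice, is on chromosome 16 (chr16:26356642-26371841, minus strand). It had 97.3, 159 and 67.1 CPM in mTEC, 95.4, 99.6 and 76.0 CPM in cTEC, and 464, 571 and 497 CPM in skin. In lung it had 13.4, 1.71 and 1.42 CPM, and in colon 0.179, 0.4999 and 0.268 CPM. Skin was above every other group, both thymic groups overlapped, and colon was lowest with 25 reads in all. The log2 fold change of skin over colon was 10.57 ± 0.93 (SE, adjusted p = 2.15e-07), and that of mTEC over skin −2.25 ± 0.60 (SE, adjusted p = 0.00534). For mTEC over cTEC it was 0.25 ± 0.58 (SE, adjusted p = 0.791). Lung replicate 1 held 437 of the 542 Cldn1 reads of the lung group. The summed level of 6 skin epithelium markers, led by Krt5 and Krt15, was 472, 28.8 and 212 CPM in lung replicates 1 to 3. Of these markers, Krt1 had 0.953, 0.636 and 0.495 CPM there and Krt10 had 3.75, 4.17 and 4.09 CPM. Krt14 had 28.2, 0.550 and 0.464 CPM there, and Trp63 had 57.6, 4.69 and 20.9 CPM. The sum and Trp63 were higher in replicate 3 than in replicate 2, whereas Cldn1 and Krt14 were not. The part of cells with Krt5 and Krt15 in the Cldn1 value was not tested.

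Cldn8, a claudin of the distal nephron and the distal colon, is on chromosome 16 as well (chr16:88560828-88563183, minus strand). It had 1.61, 2.01 and 1.95 CPM in mTEC, 2.76, 1.003 and 4.37 CPM in cTEC, and 0, 0.884 and 1.88 CPM in skin. Lung libraries had 9.75, 3.18 and 4.95 CPM, and colon libraries 104, 73.2 and 108 CPM. Colon stood apart from all other groups, with a log2 fold change of lung over colon of −4.00 ± 0.59 (SE, adjusted p = 3.79e-05), and at the low end the groups overlapped. Neither mTEC over cTEC (log2 fold change −0.54 ± 0.61, adjusted p = 0.556) nor mTEC over skin (0.89 ± 0.70, SE, adjusted p = 0.295) passed the test, nor did cTEC over skin (1.43 ± 0.68, SE, adjusted p = 0.0885), which passed without cTEC replicate 2 (adjusted p = 0.0346) or skin replicate 3 (0.0207). The mTEC level was below the lung level (log2 fold change −1.68 ± 0.59, SE, adjusted p = 0.0218), a call lost without mTEC replicate 1, mTEC replicate 3 or lung replicate 1 (adjusted p of 0.0748, 0.0596 and 0.117). For cTEC over lung the log2 fold change was −1.13 ± 0.57 (SE, adjusted p = 0.101), and it passed without cTEC replicate 3 (adjusted p = 0.0496) or skin replicate 1 (0.041).

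Cldn18 encodes a lung form and a stomach form from separate starts, and the lung form is a major claudin of alveolar epithelium. The gene is on chromosome 9 (chr9:99689461-99717267, minus strand), and values per gene do not tell the forms apart. The 250 bases before its outer start (RefSeq, GRCm38.p6, chr9:99717268-99717517, minus strand, read 5′ to 3′) are shown because this gene had the widest difference of the 10 between groups.
Cldn18: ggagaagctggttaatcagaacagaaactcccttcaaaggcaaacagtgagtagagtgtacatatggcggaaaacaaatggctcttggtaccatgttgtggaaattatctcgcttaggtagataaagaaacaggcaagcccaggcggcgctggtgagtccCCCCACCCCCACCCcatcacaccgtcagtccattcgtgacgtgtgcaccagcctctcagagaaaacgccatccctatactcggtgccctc
Capitals mark a pair of overlapping KLF motifs (CCCCACCC) 90 and 84 bases before the start. A motif of the NK2 family (CAAGTG) was found in the window of the inner start, 98 bases before it, and 11.6% of all windows held that motif. Neither window held the NKX2-1 motif CTCAAG, which 13.3% of all windows held.

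Cldn18 had 1.01, 0.782 and 2.13 CPM in mTEC, 0.190, 0.223 and 0.224 CPM in cTEC, and 1.13, 0.0884 and 0 CPM in skin. Lung libraries had 4100.4, 4379 and 4489 CPM, and colon libraries 0.492, 0.233 and 0.268 CPM. Lung was at least 3 orders of magnitude above each of the other groups, with a log2 fold change of mTEC over lung of −11.66 ± 0.63 (SE, adjusted p = 1.79e-09) and of lung over colon of 13.68 ± 0.69 (SE, adjusted p = 7.38e-10). Outside the lung the gene rested on few reads, 83 in mTEC, 12 in cTEC, 13 in skin and 24 in colon over 3 libraries each. Of the 83 mTEC reads 49 were in replicate 3, where the surfactant gene Sftpc was also highest (3.87, 24.1 and 96.0 CPM in mTEC replicates 1 to 3), and the part of lung transcripts in this value was not tested.

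The mTEC level of Cldn18 was above that of cTEC (log2 fold change 2.62 ± 0.71, SE, adjusted p = 0.0158), skin (1.91 ± 0.71, SE, adjusted p = 0.0334) and colon (2.02 ± 0.62, SE, adjusted p = 0.0104). Without mTEC replicate 3 all 3 calls were lost, with log2 fold changes of 2.06 against cTEC, 1.37 against skin and 1.47 against colon and adjusted p of 0.0777, 0.15 and 0.079. Against skin the threshold was also missed when skin replicate 2 (adjusted p = 0.106) or 3 (0.104) was dropped, and with the replicate number as a block for mTEC and cTEC (adjusted p = 0.05 after rounding). In an edgeR fit of mTEC and skin alone it was missed too, with a log2 fold change of 1.81 ± 1.22 (SE, adjusted p = 0.265). The groups at the low end did not pass the test against each other, with adjusted p from 0.545 to 0.942. Skin replicate 1 held 12 of the 13 skin reads, and lung transcripts were also highest there, with 30.8, 2.56 and 6.67 CPM of Sftpc in skin replicates 1 to 3. Their part in the value was not tested. Without this library, which also stood apart in quality, the log2 fold change of cTEC over skin turned from −0.71 to 2.38 (adjusted p = 0.105) and that of skin over colon from 0.11 to −2.99 (adjusted p = 0.0286).

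Of the channel-forming claudins, Cldn2 forms a pore for cations and water in leaky epithelia such as the intestine and the proximal tubule. The gene is on the X chromosome (chrX:139800828-139811386, plus strand). The 250 bases before its start (RefSeq, GRCm38.p6, chrX:139800558-139800807, plus strand, read 5′ to 3′) are shown because it was the only one of the 12 claudin windows examined that held a TATA box (TATAAA, in capitals, 35 bases before the start), a motif in 12.4% of all windows.
Cldn2: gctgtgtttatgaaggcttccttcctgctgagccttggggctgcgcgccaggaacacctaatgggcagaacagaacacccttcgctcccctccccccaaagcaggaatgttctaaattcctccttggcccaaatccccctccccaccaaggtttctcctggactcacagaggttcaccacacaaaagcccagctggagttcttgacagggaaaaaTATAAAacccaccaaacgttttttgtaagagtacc
It had 4.12, 2.01 and 1.996 CPM in mTEC, 2.33, 0.891 and 1.40 CPM in cTEC, and 0.188, 0 and 0 CPM in skin. Lung libraries had 0.646, 0.521 and 0.0619 CPM, and colon libraries 234, 251 and 214 CPM. Colon exceeded all other groups, next to it mTEC with a log2 fold change of mTEC over colon of −6.42 ± 0.48 (SE, adjusted p = 3.8e-08), and skin held 2 reads in all, so that fitted fold changes against skin depend on the prior count and are no bounds. The thymic groups overlapped (mTEC over cTEC 0.79 ± 0.47, SE, adjusted p = 0.236), and both were called above lung, mTEC by a log2 fold change of 2.70 ± 0.51 (SE, adjusted p = 0.000365) and cTEC by 1.91 ± 0.54 (SE, adjusted p = 0.0073). The cTEC call was lost without cTEC replicate 1 (log2 fold change 1.47, adjusted p = 0.0538). Skin against lung did not pass (adjusted p = 0.0526). It passed without any one of mTEC replicate 1, cTEC replicate 1, cTEC replicate 2, skin replicate 1 or lung replicate 3, with adjusted p from 0.0075 to 0.0472.

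Cldn15, the cation channel claudin of the intestine, is on chromosome 5 (chr5:136966616-136975858, plus strand). It had 0.955, 0.614 and 0.694 CPM in mTEC, 0.904, 0.501 and 0.560 CPM in cTEC, and 9.41, 1.59 and 1.09 CPM in skin. Levels in lung were 2.21, 4.83 and 5.82 CPM, and in colon 176, 148 and 145 CPM. Colon was again apart from all other groups, with a log2 fold change of lung over colon of −5.19 ± 0.59 (SE, adjusted p = 3.13e-06), and both thymic groups were lowest. Skin replicate 1 held 100 of the 136 skin reads, and it is also the skin library with the fewest sense reads per opposite-strand read, the highest endothelial marker sum and the highest level of the endothelial claudin Cldn5. The part of these in the Cldn15 value was not tested. Both thymic groups were called below skin, with log2 fold changes of −2.35 ± 0.67 for mTEC (SE, adjusted p = 0.00807) and −2.54 ± 0.69 for cTEC (SE, adjusted p = 0.00603). Without skin replicate 1 these were −0.80 and −0.98 (adjusted p of 0.155 and 0.0943), whereas skin then fell below lung, with a log2 fold change of −1.71 (adjusted p = 0.00205) against −0.14 ± 0.56 (SE, adjusted p = 0.859) with it. In fits of the 2 groups alone the calls below skin were also lost (adjusted p of 0.0666 for mTEC and 0.0507 for cTEC).

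The other 2 claudins are less studied. Cldn12, which lacks the tail motif by which other claudins bind scaffold proteins, is on chromosome 5 (chr5:5489537-5514958, minus strand). It had 23.2, 32.6 and 19.0 CPM in mTEC, 35.8, 36.6 and 21.5 CPM in cTEC, and 16.0, 14.1 and 22.9 CPM in skin. Levels in lung were 59.0, 56.7 and 58.9 CPM, and in colon 99.8, 112 and 99.8 CPM. The gene varied least of the 10, with at least 14.1 CPM in every library and a mean of 17.7 CPM in skin against 104 CPM in colon, a log2 fold change of skin over colon of −2.55 ± 0.24 (SE, adjusted p = 5.19e-07). The thymic groups did not pass the test against each other (mTEC over cTEC −0.33 ± 0.23, SE, adjusted p = 0.327), nor did mTEC against skin (0.49 ± 0.24, SE, adjusted p = 0.0887), which passed without mTEC replicate 3 (adjusted p = 0.0334), cTEC replicate 3 (0.0417) or skin replicate 3 (0.0145). The cTEC level was above skin (0.82 ± 0.24, SE, adjusted p = 0.00849), a call lost in a fit of those 2 groups alone (adjusted p = 0.0507).

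Cldn23 is on chromosome 8 (chr8:35824712-35826559, minus strand). It had 8.45, 7.37 and 6.64 CPM in mTEC, 3.09, 1.73 and 2.63 CPM in cTEC, and 9.60, 14.1 and 11.5 CPM in skin. Levels in lung were 27.5, 40.9 and 33.5 CPM, and in colon 256, 164 and 205 CPM. No 2 groups overlapped, in the order colon, lung, skin, mTEC and cTEC, and all 10 pairs were called. The smallest step was mTEC over skin (log2 fold change −0.65 ± 0.23, SE, adjusted p = 0.0258), which missed the threshold when mTEC replicate 2, mTEC replicate 3 or the second skin library was dropped (adjusted p of 0.0733, 0.106 and 0.105) and in a fit of those 2 groups alone (0.16).

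All 10 claudins differed among the 5 groups, with adjusted p of at most 4.74e-07, as did 90.6% of all genes tested, so that this count says little about claudins. Over the 10 pairs of groups, 85 of 100 tests of a claudin were called, as were 57% of the tests of all genes. Between mTEC and cTEC 5 were called, all higher in mTEC, where 24.7% of all genes were called, 15.2% higher and 9.45% lower in mTEC. The median log2 fold change of mTEC over cTEC was 0.83 for the 10 claudins and 0.07 for all genes. The 5 were Cldn4 (log2 fold change 1.25 ± 0.32, adjusted p = 0.0117), Cldn7 (1.12 ± 0.33, adjusted p = 0.0243), Cldn3, Cldn23 (1.58 ± 0.25, adjusted p = 0.000592) and Cldn18, each with its SE and with no overlap between the 3 mTEC and the 3 cTEC libraries, as for 46.7% of all genes. Cldn1, Cldn2, Cldn8, Cldn12 and Cldn15 did not pass in this pair. Leaving out 1 library left the direction of all 5 as it was, but 3 calls remained without mTEC replicate 1 and 2 without mTEC replicate 3, cTEC replicate 2 or cTEC replicate 3. Cldn3 and Cldn7 lost their calls in each of those 4 fits, with adjusted p from 0.0834 to 0.112 for Cldn3 and from 0.0592 to 0.098 for Cldn7, and Cldn4 without cTEC replicate 3 (adjusted p = 0.0513). Cldn18 lost it without mTEC replicate 3 (0.0777) or cTEC replicate 2 (0.0507), and Cldn23 kept its call in all. Cortical markers set cTEC replicate 3 apart, with a sum over 6 genes of 6990, 6222 and 13700 CPM in cTEC replicates 1 to 3. The part of this difference in the calls was not tested.

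Against skin, 8 claudins were called in mTEC, with 4 higher in mTEC (Cldn2, Cldn3, Cldn7 and Cldn18) and 4 lower (Cldn1, Cldn4, Cldn15 and Cldn23), where 57% of all genes were called, 34.6% higher and 22.4% lower. In cTEC 8 were called as well, with 4 higher (Cldn2, Cldn3, Cldn7 and Cldn12) and 4 lower (Cldn1, Cldn4, Cldn15 and Cldn23), where 56.4% of all genes were called, 32.5% higher and 23.9% lower. The median log2 fold change of the 10 claudins was 0.69 for mTEC over skin and 0.05 for cTEC over skin, against 0.22 and 0.19 over all genes. Fits of the 2 groups alone called 5 of the 10 claudins and 44.3% of genes for mTEC and skin, and 6 claudins and 46.2% of genes for cTEC and skin.

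Against lung, all 10 claudins were called in mTEC, with 3 higher (Cldn1, Cldn2 and Cldn4) and 7 lower, where 63.6% of all genes were called, 34.9% higher and 28.6% lower. In cTEC 8 were called, with 2 higher (Cldn1 and Cldn2) and 6 lower, where 59.5% of all genes were called, 30.9% higher and 28.6% lower. In skin 8 were called, with 2 higher (Cldn1 and Cldn4) and 6 lower, where 60.4% of all genes were called, 26.7% higher and 33.7% lower. The median log2 fold changes of the 10 claudins over lung were −1.60 for mTEC, −1.82 for cTEC and −2.14 for skin, against 0.14, 0.10 and −0.15 over all genes.

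Against colon most of the 10 claudins were lower in every group. In mTEC all 10 were called, with 8 lower and Cldn1 and Cldn18 higher, where 66% of all genes were called, 29.1% lower and 36.9% higher. In cTEC 9 were called, with 8 lower and Cldn1 higher, where 65.1% of all genes were called, 30.5% lower and 34.6% higher. In skin 9 were called, with 8 lower and Cldn1 higher, where 58.2% of all genes were called, 30.8% lower and 27.4% higher. In lung all 10 were called, with 8 lower and Cldn1 and Cldn18 higher, where 58.6% of all genes were called, 28.3% lower and 30.4% higher. The median log2 fold changes of the 10 claudins over colon were −4.03 for mTEC, −5.00 for cTEC, −4.74 for skin and −2.56 for lung, against 0.18, 0.14, −0.05 and 0.00 over all genes. These 4 comparisons share the colon libraries, and those between the kits cannot be told apart from a difference of kit. Lung and colon share 1 kit.

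**Figure D3:**
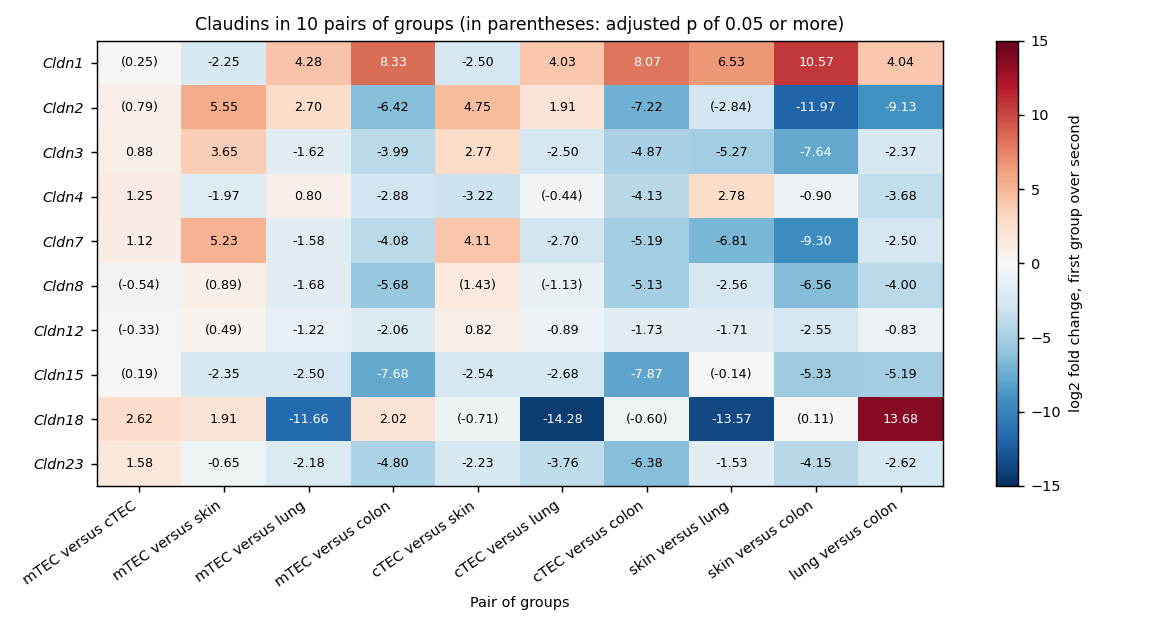
Log2 fold change (colour scale and numbers, first group over second) of the 10 claudins (rows) in the 10 pairs of groups (columns), with values in parentheses where the edgeR adjusted p was 0.05 or more. The column of mTEC over cTEC runs from −0.54 to 2.62, and values for Cldn2 in pairs with skin rest on 2 skin reads.

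Of 23 other claudin genes found, 7 reached a mean of 5 TPM in a group, and several were thymic. Cldn9, a claudin of the inner ear, had 25.0, 38.2 and 28.3 TPM in mTEC, 7.25, 10.6 and 5.78 TPM in cTEC and at most 0.38 TPM in any library of skin, lung or colon. It was called higher in mTEC than in cTEC, with a log2 fold change of 1.89 (adjusted p = 0.00726). Cldn13, a claudin gene of rodents without a human counterpart, had 28.1, 8.40 and 20.4 TPM in mTEC and 2.96, 2.45 and 7.93 TPM in cTEC (log2 fold change 2.11, adjusted p = 0.025). It had no read in skin and lung, which allows up to 0.0781 CPM over the skin group and 0.0302 CPM over the lung group (3 reads of the group's total, for counting error only), and 3 reads in colon. Both genes were thus found at 2 TPM or more in all 6 thymic libraries and in no other library. The calls of these other claudins, here and below, are from the fit of all 15 libraries only. How far they depend on single libraries is not given here.

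Cldn11, the claudin of myelin and Sertoli cells, had 5.49, 7.74 and 9.76 TPM in mTEC, 3.22, 6.12 and 3.84 TPM in cTEC and 0.23 to 0.26 TPM in lung, with no read in skin and colon. Its mTEC and cTEC libraries overlapped and did not pass the test (log2 fold change 0.73, adjusted p = 0.252). Cldn14, a claudin of inner ear and kidney, averaged 1.07 TPM in mTEC, 0.17 TPM or less in cTEC, skin and lung, and 5.60 ± 2.13 TPM in colon. Cldn5, the main claudin of endothelium, had 1.03, 0.48 and 1.19 TPM in mTEC and 3.65, 4.51 and 8.24 TPM in cTEC, lower in mTEC by a log2 fold change of −2.61 (adjusted p = 0.0251). It had 31.0, 5.86 and 5.79 TPM in skin and 6.39, 19.6 and 15.3 TPM in lung, in the order of the endothelial marker sums in lung (74.7, 159 and 153 CPM) and highest in the skin library with the highest such sum. In the thymus the sums were 17.4, 8.10 and 13.7 CPM in mTEC and 8.24, 7.97 and 12.5 CPM in cTEC. Within mTEC both the sum and Cldn5 were lowest in replicate 2, and within cTEC both were highest in replicate 3. Between the groups Cldn5 was higher in cTEC, whereas the sums were not. The part of endothelial transcripts in Cldn5 was not tested. Cldn10, an ion-channel claudin of the kidney, had 13.6 TPM in skin replicate 3 against 1.59 and 0.72 TPM in the other 2 skin libraries and 4.76 to 9.38 TPM in lung. That skin library also had the highest fibroblast marker sum of the skin libraries. The melanocyte marker sum (5.27, 3.27 and 26.3 CPM in skin replicates 1 to 3) and the crypt base marker Lgr5 (5.55, 0.619 and 50.5 CPM) were highest there too. The part of these cell types in the Cldn10 value was not tested. Cldn34c1 averaged 6.29 TPM in mTEC, 2.54 TPM in cTEC, 1.01 TPM in skin, 4.26 TPM in lung and 0.14 TPM in colon, on 81 reads or fewer in each group but lung (116 reads).

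**Figure D4:**
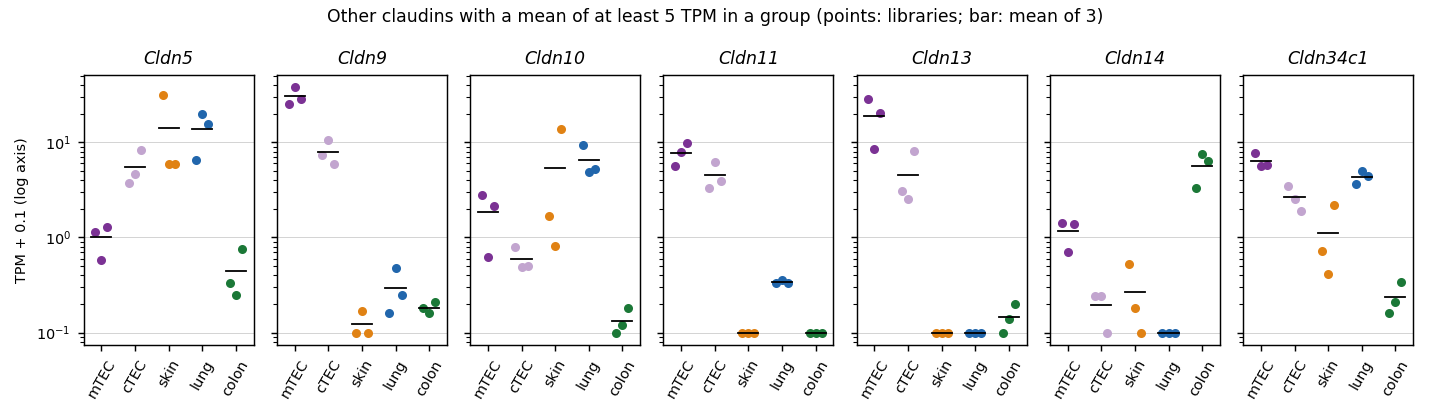
Level of the 7 other claudins with a mean of at least 5 TPM in a group, as TPM plus 0.1 on a log axis (vertical) in mTEC, cTEC, skin, lung and colon, with a point for each library and a bar at the mean of 3. Cldn9 and Cldn13 are above 2 TPM in the thymic libraries only.

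Genes that work with claudins were read from 4 further lists. Of 13 other membrane proteins of tight junctions, 8 were higher in mTEC than in cTEC and none lower, where 15.2% of all genes were higher and 9.45% lower, and their median log2 fold change was 1.26 against 0.07 over all genes. All 13 were called between cTEC and lung, 12 of them lower in cTEC, where 59.5% of all genes were called and 28.6% lower. Between cTEC and skin all 13 were called too, 11 of them lower in cTEC, where 56.4% of all genes were called and 23.9% lower. Epcam, the partner of Cldn7, averaged 597 ± 87.3 TPM in mTEC, 315 ± 37.6 TPM in cTEC, 129 ± 44.2 TPM in skin, 124 ± 11.2 TPM in lung and 1239 ± 114 TPM in colon (edgeR adjusted p over the 5 groups = 1.93e-09). F11r, the junction adhesion molecule JAM-A, averaged 605 ± 49.6 TPM in lung and 162 to 244 TPM in the other 4 groups.

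Of 18 cytoplasmic junction proteins, 2 were higher and 5 lower in mTEC than in cTEC, against 15.2% and 9.45% of all genes. In lung 15 were higher and 2 lower than in colon, against 30.4% and 28.3% of all genes, with a median log2 fold change of lung over colon of 1.39 against 0.00 over all genes. Pard6b, a subunit of the polarity complex, averaged at most 42.4 TPM in mTEC, cTEC and skin, 296 ± 59.8 TPM in lung and 121 ± 14.0 TPM in colon. Ybx3, a factor that binds the scaffold protein ZO-1, was highest in skin at 849 ± 208 TPM. Of 16 transcription factors that have been reported to act on claudin genes, 8 were higher in mTEC than in cTEC and none lower, against 15.2% higher and 9.45% lower of all genes. Elf3 averaged 99.2 ± 1.67 TPM in mTEC, 62.6 ± 19.4 TPM in cTEC, 15.7 ± 3.12 TPM in skin, 85.2 ± 13.8 TPM in lung and 585 ± 71.1 TPM in colon (adjusted p = 8.1e-10). Klf5 was lowest in cTEC (27.1 ± 13.5 TPM) and highest in skin (205 ± 29.4 TPM) and colon (161 ± 2.94 TPM), and Klf4 was lowest in lung (180 ± 10.3 TPM).

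Of 8 proteases, their inhibitors and kinases that act on claudins, 4 were higher and 1 lower in mTEC than in cTEC, against 15.2% and 9.45% of all genes, and 7 were lower in cTEC than in colon, as were 30.5% of all genes. Spint2 and Spint1 encode inhibitors that protect Epcam and Cldn7 from cleavage. In TPM both were highest in mTEC, with 1123 ± 144 TPM for Spint2 and 194 ± 5.02 TPM for Spint1, although in CPM Spint2 averaged 781 CPM in mTEC and 816 CPM in colon. Both were lowest in skin, with 341 ± 37.5 TPM and 63.9 ± 20.9 TPM. The kinase Wnk1 averaged 330 ± 30.5 TPM in lung and 48.3 to 80.1 TPM in the other groups.

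The genes with the pattern most like that of a claudin were sought among 12125 genes of at least 10 CPM in their highest group. Claudins, genes without a symbol and genes with clone or pseudogene names had been left out of these. Likeness was measured by the root mean square difference in log2 CPM (prior count 2), centred on each gene's mean, over the 15 libraries. This difference is not scaled to a gene's spread, so it tends to be smaller for a gene that varied little, as Cldn12 did. Cldn12 had the nearest neighbour, Plpp5 at 0.27, followed by Cldn4 with Mpzl3 at 0.46 and Cldn18 with Sec14l3 at 0.56. The lung factor Nkx2-1 (1.28) and the alveolar type 1 gene Ager (1.33) came next for Cldn18, and they were also low outside the lung. Cldn3 was nearest to Ces1e (0.58), Cldn7 to Plch1 (0.61) and Cldn23 to the transferrin receptor Tfrc (0.60). The neighbour of Cldn1 was Wnt10a (0.71), a Wnt ligand of skin appendages, with a mean of 34.0 CPM in mTEC, 15.8 CPM in cTEC, 119 CPM in skin and less than 1 CPM in lung and colon. Those of the colon claudins were Fabp2, an intestinal fatty acid carrier, for Cldn2 (0.73), Adh1 for Cldn15 (0.74) and Il18 for Cldn8 (0.80). Among the 10 claudins themselves, Cldn3 and Cldn8 (1.22) and Cldn15 and Cldn23 (1.23) followed Cldn3 and Cldn7 in likeness.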

How the data were processed

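Per the submitters' processing notes, reads were handled with bcl2fastq 2.20, STAR 2.5.1b and RSEM 1.2.28 on GRCm38, with the release of the annotation not stated there. For each library the authors deposited read counts per gene for each strand, of which the sense-strand counts were used, and RSEM expected counts and TPM. The TPM and expected counts are the authors' deposited values and are estimates per gene. Gene IDs were given symbols from GENCODE M21 tables, and 50376 of 50600 IDs matched. Here counts were TMM-scaled, filtered on low counts and fitted with edgeR 4.0.16 (quasi-likelihood) in R 4.3.3, with all 15 libraries and group as the only term, which leaves 19107 genes and a common biological coefficient of variation of 28.1%. The fits recovered known changes in simulated data. There only a sample of genes was changed, in mTEC alone, so that check did not cover differences as wide as those among these groups. DESeq2 1.42.0, other scalings, filters and counts, and leaving out each library were alternatives, and expected counts were rounded for the fit. Replicate numbers deviated together in mTEC and cTEC (correlations of 0.156 to 0.29 for the 3 pairs), and a block for those 6 libraries was added after seeing the data. In no other pair of groups did all 3 numbers do so.

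The 10 claudins and the gene lists were chosen with earlier results of these data known. All 10 are named, as are other claudins with a mean of at least 5 TPM in a group, the 3 genes with the largest mean TPM of each other list, and nearest-pattern genes, of which up to 3 per claudin were found. RefSeq promoter windows (GRCm38.p6) were found for 8 of the 10, not for Cldn8 and Cldn23, and 250 bases before each start were searched for motifs of the TATA box (TATAAA), the GC box (GGGCGG), Snail and ZEB (CAGGTG), GRHL (AACCGGTT), CDX (TTTATNG), HNF1 (by name here), HNF4 (CAAAGTCCA), NKX2-1 (CTCAAG), the NK2 family (CAAGTG), KLF (CCCCACCC), and ELF3 and EHF (GGAAGT). Library totals were 12946533 to 41978665 gene reads. PCR reads without molecular identifiers are not independent molecules, so limits from counts cover counting error only. Values of some list genes that the naming rule chose are not reported here, although the list counts include them.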

Additional observations from a re-analysis of the deposited data

How the results depend on the processing

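The leading claudin of each epithelium was the same from sense reads per effective length and with all claudin genes as denominator. Leaving out 1 library of a group could not change its leader, which was highest in all 3 libraries. Of 100 fold changes of a claudin between 2 groups, 76 kept their direction and side of the threshold under all 27 alternatives. Among them were 70 of the 85 calls. Signs turned for 5 fold changes, none of which had passed the test. For Cldn15 in skin over lung (−0.14) the log2 fold change was 0.0367 with upper quartile scaling, 0.0054 with DESeq2, −1.71 without skin replicate 1, 0.20 without skin replicate 2, 0.33 without skin replicate 3 and 0.12 without lung replicate 3. For Cldn15 in mTEC over cTEC (0.19) it ran from −0.0004 without mTEC replicate 1 to 0.51 without cTEC replicate 1, and for Cldn1 in that pair (0.25) from −0.13 without mTEC replicate 2 to 0.50 without mTEC replicate 3. For Cldn18 it was 2.38 in cTEC over skin without skin replicate 1 (−0.71 with it) and −1.44 without skin replicate 3, and in skin over colon (0.11) it was −2.99 without skin replicate 1, 0.84 without skin replicate 3, −0.14 without colon replicate 2 and −0.01 without colon replicate 3. The causes were not tested, beyond the few reads given for Cldn18 and Cldn15.

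Claudins called between mTEC and cTEC numbered 2 to 5 when 1 library was left out, and genes called in that pair 2408 to 6554, against 4714 with all libraries (2408 without mTEC replicate 1, 3075 without cTEC replicate 2). The fit of mTEC and skin alone, on fewer libraries, called 5 claudins against 8 and 7516 genes against 10899, and that of cTEC and skin 6 claudins against 8 and 7216 genes against 10781. With all claudin genes as denominator, the share of Cldn4 in cTEC was 34.0% against 38.2%, by construction. With no filter on low counts, 72.2% of the calls between mTEC and cTEC were higher in mTEC, against 61.7% with it. Upper quartile scaling moved the median of all genes by up to 0.22 (mTEC over colon). The replicate block over all groups called 5 claudins and 4431 genes between mTEC and cTEC, and the block for mTEC and cTEC alone 5 claudins and 4567 genes. Outside those groups the samples share only a number: 1 of the other 27 same-numbered pairs had a correlation over 0.1, and 9 of all 15 libraries correlated best with their own number. Under the block over all groups Cldn2 in skin over lung passed the test (adjusted p = 0.0363), and under the block for mTEC and cTEC it passed too (0.0344), as did Cldn12 in mTEC over skin (0.0396), while Cldn18 in mTEC over skin did not. With DESeq2, Cldn2 in skin over lung (0.0208) and Cldn8 in cTEC over skin (0.04) passed. With no filter Cldn23 in mTEC over skin did not (0.078). Cldn12 in mTEC over skin (0.0394), Cldn8 in cTEC over skin (0.0397) and Cldn2 in skin over lung (0.0238) passed with no filter. Cldn12 in mTEC over skin also passed with upper quartile scaling (0.0491). In a fit of skin and lung alone, Cldn8 in skin over lung did not pass (0.0715). With 3 pools a group and 12 to 136 reads behind Cldn15 and Cldn18 in the thymus and skin, the fold changes of these genes rest on few reads, and the smallest difference detectable at this depth was not computed.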
